A study of Homo sapiens with 4 samples.

Results

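The NRF2, glutathione and thioredoxin antioxidant genes are a list of 42 genes taken by symbol from the gene table of this series, and all 42 were found among its 23362 entries. SRXN1 had a pair of entries, of which the one with the higher mean level was used. The levels come from MKN28, a human gastric adenocarcinoma cell line, sequenced as 1 library in each of 4 groups. Every group carried a tetracycline-inducible (tet-on) retroviral construct kept by G418 and puromycin selection. The construct encoded luciferase in the control group (Luc), unchanged KIAA1324 in WT, KIAA1324 with the asparagines of 3 putative N-glycosylation sites replaced by glutamine in 3NQ, and KIAA1324 without its transmembrane domain in ΔTM. Neither the labels nor the methods say whether doxycycline was given before RNA was taken, or whether a line was a pool or a clone. The comparison of the groups asks what KIAA1324 changes in these cells and whether its N-glycosylation matters for it.

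NRF2, the product of NFE2L2, is a transcription factor that KEAP1 holds and marks for degradation until oxidants or electrophiles modify KEAP1. Freed NRF2 binds antioxidant response elements together with small MAF proteins and drives genes that make glutathione, reduce thioredoxin, supply NADPH, store iron and detoxify reactive compounds. Many epithelial cancers express these genes at high levels.

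Sequences of the starts of these genes are given first, because NRF2 acts on its target genes through the response element. RefSeq start windows, from 250 bases before to 50 bases after a start site, were available for 30 of the 42 genes, as 42 windows in all. The letters searched were TGACNNNGC, the core of the antioxidant response element, on both strands. They stood in 9 of the 42 windows (21.4%), compared to 13.3% of the 35116 windows of all genes. The 9 windows held 12 matches in 8 genes, namely PGD, GCLM, ME1, GSTP1, MGST1, TXNRD1, GPX2 and KEAP1. A match is a description of letters and not a bound site.

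Further matches in ME1, TXNRD1 and KEAP1, and those of PGD and MGST1, are not printed. The matches below are a selection, a single match for each gene, from genes whose levels are described further on. Each is printed 5′ to 3′ on the strand that reads as the motif, with 10 flanking bases on either side and the matched letters in capitals. Positions are those of the matched letters on GRCh37, found by matching the RefSeq windows to that build.
GCLM (chr1:94375012-94375020, plus strand): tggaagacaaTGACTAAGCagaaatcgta
GPX2 (chr14:65409577-65409585, plus strand): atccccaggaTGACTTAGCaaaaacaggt
GSTP1 (chr11:67351217-67351225, plus strand): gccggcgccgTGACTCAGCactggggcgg
ME1 (chr6:84140899-84140907, minus strand): tctcctgccaTGACTCAGCgcttctcgca
TXNRD1 (chr12:104609458-104609466, plus strand): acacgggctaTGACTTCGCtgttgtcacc
KEAP1 (chr19:10613470-10613478, plus strand): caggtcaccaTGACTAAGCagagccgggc

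The printed match in GCLM lay 25 bases before the start site, and that in KEAP1 lay 22 bases before it. Those in GSTP1, TXNRD1, GPX2 and ME1 lay 57, 90, 113 and 128 bases before it, respectively. The printed matches of GSTP1 and ME1 also hold TGACTCA, the letters of an AP-1 site, so that they cannot be assigned to either motif by letters alone. Sequence beyond the windows was not searched, and the GCLC and OSGIN1 windows held no TGACNNNGC. They are printed because these are the genes with the highest ratios in WT below. The OSGIN1 window held TGACTCA (in capitals) 90 bases before its start site, a motif looked for after the window was seen and present in 4.95% of all windows. Both windows lay inside the span that the gene table lists for their gene and cover sequence before and just after a start site.
GCLC (chr6:53409850-53410149, minus strand): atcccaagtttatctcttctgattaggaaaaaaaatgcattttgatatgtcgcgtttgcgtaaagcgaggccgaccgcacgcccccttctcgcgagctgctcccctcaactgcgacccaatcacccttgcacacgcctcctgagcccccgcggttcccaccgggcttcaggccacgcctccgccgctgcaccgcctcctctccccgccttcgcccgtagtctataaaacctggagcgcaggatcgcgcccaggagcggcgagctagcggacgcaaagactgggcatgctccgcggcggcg
OSGIN1 (chr16:83986595-83986894, plus strand): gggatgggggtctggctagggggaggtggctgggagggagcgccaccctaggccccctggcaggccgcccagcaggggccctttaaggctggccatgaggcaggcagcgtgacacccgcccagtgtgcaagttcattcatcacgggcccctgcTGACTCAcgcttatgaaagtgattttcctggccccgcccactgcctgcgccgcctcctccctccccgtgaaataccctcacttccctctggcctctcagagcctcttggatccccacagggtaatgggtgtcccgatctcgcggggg

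The authors' values are FPKM, fragments normalised to transcript length and to the mapped fragments of the library, so that levels can be compared between genes. The FPKM of the 4 libraries summed to between 560540 and 585104. The table holds no counts, and its smallest values lie far below what a whole read could give, so that sequencing depth is unknown here. With 1 library a group, none of the differences below could be set against a spread between cultures, and no test was run. KIAA1324 itself measured 2.86 FPKM in Luc, against 11185 in WT and 8197 in 3NQ but was listed at 0 in the remaining library, which is therefore called the ΔTM-labelled library, and every value of it rests on that label. All 6 epithelial markers were expressed, and their summed FPKM was 13639 for Luc, 7922 for WT, 10298 for 3NQ and 11883 for the ΔTM-labelled library. Of the leukocyte, fibroblast and endothelial markers, CD68 and COL1A1 alone reached an FPKM of 1. KRT8 and KRT18 made up most of the epithelial sums, at 8501 and 3684 FPKM in Luc and 4510 and 2115 in WT. EPCAM, CDH1, KRT19 and CLDN4 were also below Luc in WT, but by less. Whether the lower epithelial sum in WT bears on the ratios below was not tested.

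Ratios are on the scale of log2(FPKM + 1), which understates changes of low genes. A gene entered them once any library listed it at 1 FPKM or more, which held for 11769 entries of the table and 35 of the 42 antioxidant genes. Of these 35, 34 had an FPKM of at least 1 in every library, and GPX3 fell short in the ΔTM-labelled library. The other 7, AKR1B1, AKR1B10, AKR1C1, AKR1C2, ALDH3A1, MGST1 and PRDX2, stayed below 1 everywhere. Ratios of 1.5-fold or more, 0.58 on the log2 scale, are referred to as calls.

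KIAA1324 WT came with higher levels of GCLC, OSGIN1 and AKR1C3, while NFE2L2, KEAP1 and most of the other antioxidant genes stayed within 1.5-fold of Luc. In 3NQ, SLC7A11 was called higher and GPX2 lower, and in the ΔTM-labelled library none of the 35 genes was called. In WT, 3 of 35 genes (8.57%) were called higher, compared to 3.36% of all tested genes, and 0 were called lower, compared to 3.34%. In 3NQ, 1 gene was called higher and 1 lower (2.86% each), compared to 1.77% and 2.57% of all tested genes. In the ΔTM-labelled library, where no antioxidant gene was called, 1.54% of all tested genes were higher and 1.57% lower. The higher genes made up 49.5% of the calls over all genes in that library, and 60.5% after rescaling by the median of ratios. OSGIN1 in WT was the only antioxidant gene to reach 2-fold against Luc in any library, compared to 0.671% of all tested genes that were at least 2-fold higher in WT.

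The median log2 ratio over the 35 genes came to 0.026 for WT, −0.036 for 3NQ and 0.025 for the ΔTM-labelled library. That of all tested genes was −0.0049, −0.038 and −0.060, respectively. Of the 35 genes, WT held 20 above Luc, 3NQ held 17 and the ΔTM-labelled library held 19. The counts in 3NQ and the ΔTM-labelled library depend on scaling. Rescaling by the median of ratios gave 18 and 24 there, respectively, while it left 20 in WT. It also turned the median of the 35 genes in 3NQ positive, to 0.0064. Between any pair of libraries, 7 of the 35 genes reached 1.5-fold, compared to 14.7% of all tested genes, and 12 of 35 (34.3%) stayed within 0.25 on the log2 scale, compared to 35.2%.

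**Figure D1:**
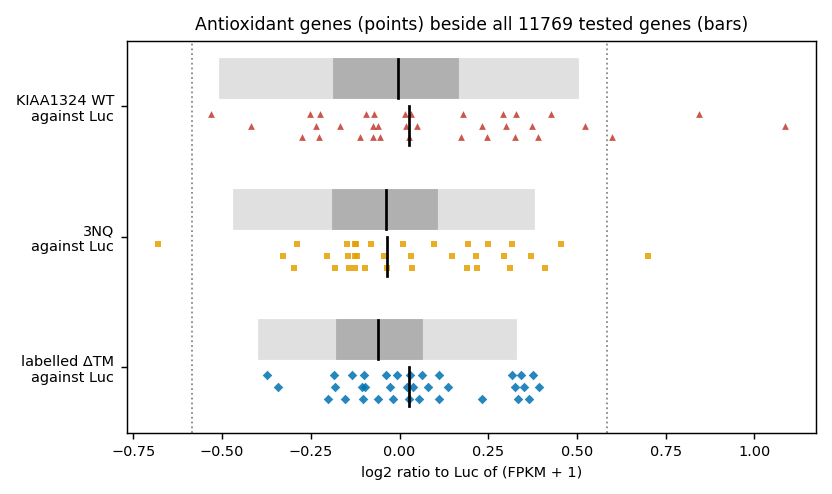
Log2 ratio to Luc of FPKM + 1 (x axis) in WT, 3NQ and the ΔTM-labelled library. Points are the 35 antioxidant genes, grey bars span the middle 50% (dark) and 90% (light) of the 11769 tested genes, black lines are medians and dotted lines mark 1.5-fold. In WT, 3 points lie to the right of the upper line and none to the left of the lower line.

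Together, the 42 genes made up 1.15% of the summed FPKM in Luc, as against 1.29% for WT, 1.21% for 3NQ and 1.22% for the ΔTM-labelled library. Their summed FPKM was 6602, 7295, 7084 and 6834 in the same order. Such sums weigh the most abundant genes most. HMOX1, FTH1 and FTL together went from 1905 FPKM in Luc to 2528 in WT. The thioredoxins and peroxiredoxins stood at 2587 and 2577, and the median log2 ratio of the 35 tested genes in WT was 0.026. The higher sum in WT is therefore not a rise of the list as a whole. FTH1, FTL, PRDX1, GSTP1, TXN and TXNRD1 were the most abundant, whereas OSGIN1, GPX2 and GPX3 were the least abundant of those that passed the filter.

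**Figure D2:**
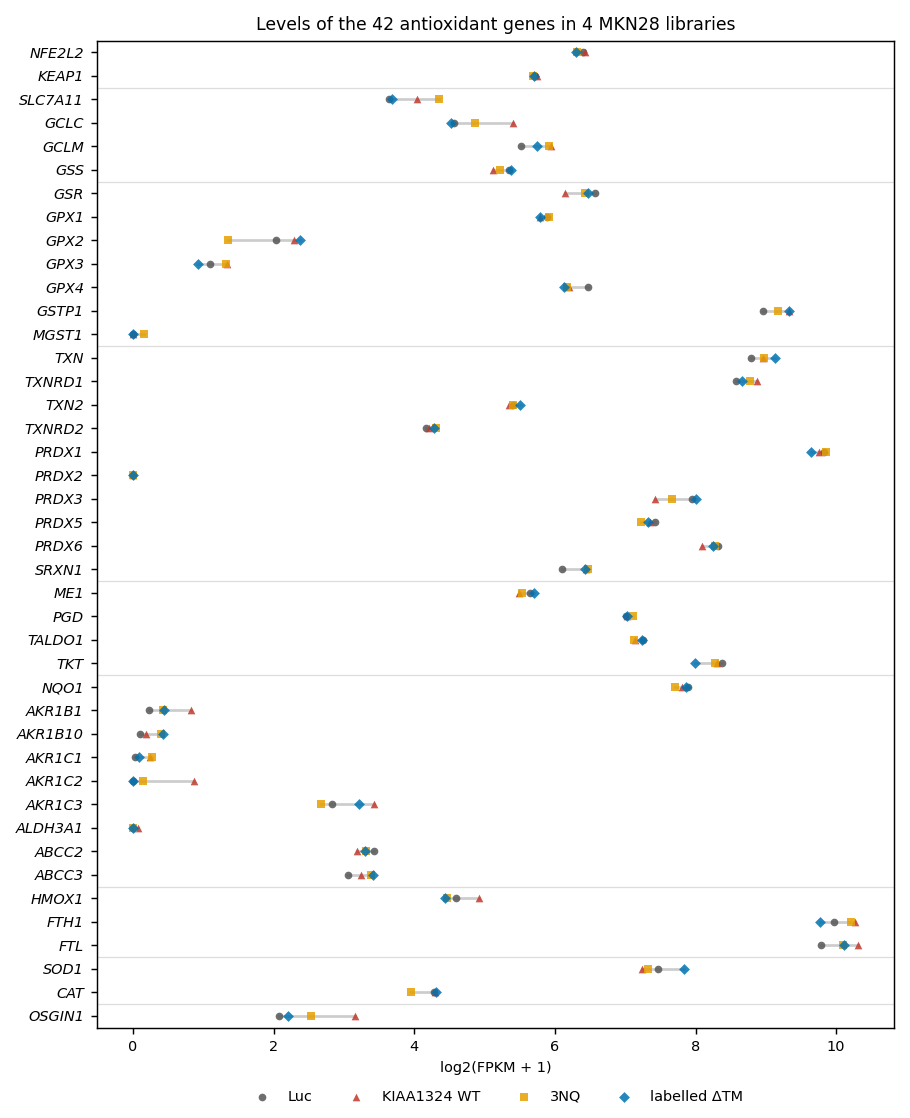
Level of each of the 42 antioxidant genes as log2(FPKM + 1) (x axis), grouped by role, with 1 point per library and a grey line over the range. Most ranges are narrow beside the differences between genes, the widest in log2 being those of OSGIN1 and GPX2 among genes that passed the filter.

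The regulators themselves hardly differed between the libraries. NFE2L2, which encodes NRF2, measured 83.3 FPKM in Luc, against 85.2 for WT, 78.7 for 3NQ and 77.8 for the ΔTM-labelled library. Its log2 ratio to Luc was 0.03, −0.08 and −0.10. KEAP1, the adaptor that directs NRF2 to degradation, measured 51.8, 52.8, 50.5 and 51.1 FPKM in the same order, with log2 ratios of 0.03, −0.04 and −0.02, of which the negative ones turned positive after median-of-ratios rescaling. NRF2 is regulated largely through its protein, which was not measured here. The span listed for NFE2L2 overlaps AGPS on the other strand, with an FPKM from 49.9 to 58.9.

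Of the 4 genes for cystine import and glutathione synthesis, GCLC was called in WT and SLC7A11 in 3NQ. GCLC (ENSG00000001084, chromosome 6 of GRCh37 from 53362139 to 53481768) is the catalytic subunit of glutamate-cysteine ligase, the rate-limiting enzyme of glutathione synthesis. It measured 22.7 FPKM in Luc, against 41.5 for WT, 28.0 for 3NQ and 22.0 for the ΔTM-labelled library. WT stood highest, 3NQ lay in between, and the ΔTM-labelled library lay beside Luc. The log2 ratio to Luc came to 0.84 for WT, 0.29 for 3NQ and −0.04 for the ΔTM-labelled library, where rescaling by the median of ratios turned it positive. GCLM, the modifier subunit of the same ligase, measured 44.7, 60.4, 59.7 and 52.6 FPKM in the order Luc, WT, 3NQ and ΔTM-labelled library, which holds for all series of 4 values below. It was thus above Luc in each of the other libraries, with log2 ratios of 0.43, 0.41 and 0.23, all below the threshold.

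SLC7A11 (ENSG00000151012, chromosome 4 from 139085251 to 139163503), the cystine-importing subunit of system xc-, measured 11.5 FPKM in Luc, against 15.4 for WT, 19.4 for 3NQ and 11.8 for the ΔTM-labelled library. Here 3NQ and not WT was highest. The log2 ratio to Luc was 0.70 in 3NQ, 0.39 in WT and 0.03 in the ΔTM-labelled library, and the 3NQ value fell to 0.56 with a pseudocount of 5, below the threshold. GSS, which joins glycine to the dipeptide that the ligase makes, measured 39.7, 33.7, 36.3 and 40.4 FPKM and was lowest in WT (log2 ratio −0.23). The median of these 4 genes came to 0.41 for WT, 0.35 for 3NQ and 0.028 for the ΔTM-labelled library.

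**Figure D3:**
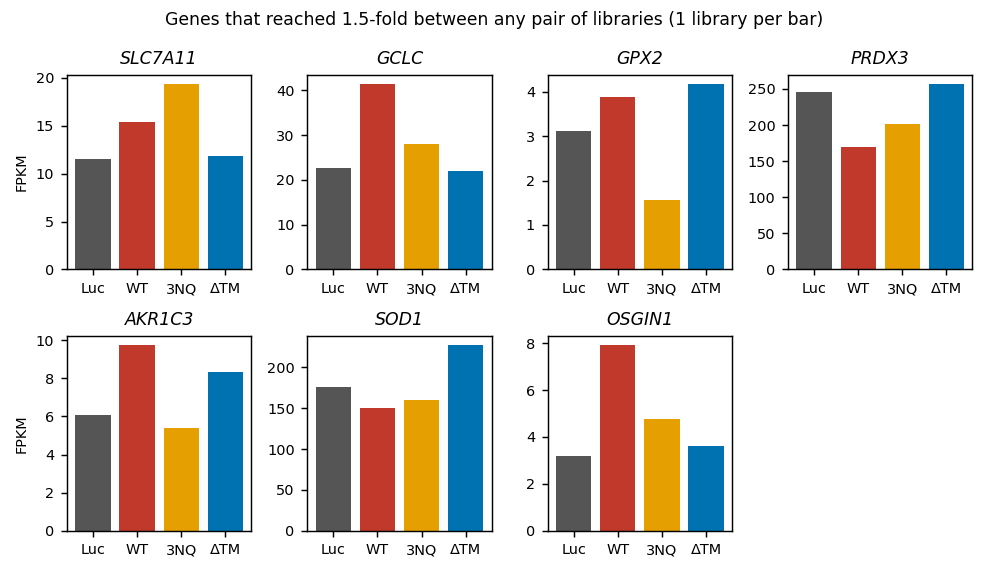
FPKM (y axis, from 0) of the 7 antioxidant genes that reached 1.5-fold between any pair of libraries, with 1 bar per library and no error bars because there was 1 library per group. WT is the highest bar for GCLC, AKR1C3 and OSGIN1, 3NQ for SLC7A11, and the ΔTM-labelled library for GPX2, PRDX3 and SOD1.

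Among the enzymes that reduce or use glutathione, GPX2 alone was called in a comparison with Luc. GPX2 (ENSG00000176153, chromosome 14 from 65405870 to 65409531), the gastrointestinal glutathione peroxidase, measured 3.11 FPKM in Luc, against 3.87 for WT, 1.56 for 3NQ and 4.17 for the ΔTM-labelled library. 3NQ was the low library, with a log2 ratio of −0.68 to Luc, which rests on low values and shrank to −0.31 with a pseudocount of 5. The listed span of GPX2 overlaps CHURC1 on the other strand, with an FPKM from 19.3 to 27.1, and counting by strand is not stated. GPX3, the secreted peroxidase, was near the filter, at 1.15, 1.52, 1.49 and 0.891.

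GPX1, the main cytosolic peroxidase, varied little, at 58.2, 54.5, 59.6 and 54.2 FPKM. GPX4, which reduces lipid hydroperoxides and thereby guards against ferroptosis, was highest in Luc, at 88.0 FPKM, and stood at 72.5 for WT, 71.4 for 3NQ and 69.2 for the ΔTM-labelled library. Its log2 ratios of −0.27, −0.30 and −0.34 were all short of the threshold. GSR, which regenerates reduced glutathione with NADPH, measured 93.9, 70.0, 84.9 and 87.3 FPKM, lowest in WT with a log2 ratio of −0.42. GSTP1, a transferase that couples glutathione to electrophiles, measured 496 FPKM in Luc, against 642 for WT, 577 for 3NQ and 643 for the ΔTM-labelled library. It was above Luc in all 3 other libraries, by 0.22 to 0.38 on the log2 scale. MGST1, the microsomal transferase, was listed at 0 in every library except 3NQ, where it was 0.120. The median of the 6 tested genes of glutathione reduction and use was 0.070, −0.055 and −0.10 in WT, 3NQ and the ΔTM-labelled library.

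The thioredoxin system held several of the most abundant genes, and none of its 9 tested genes was called against Luc. PRDX3 did reach 1.5-fold between WT and the ΔTM-labelled library. TXN, the cytosolic thioredoxin, measured 439 FPKM in Luc, against 496 for WT, 501 for 3NQ and 561 for the ΔTM-labelled library. TXNRD1, which reduces it, measured 382, 467, 436 and 403 FPKM. SRXN1, the sulfiredoxin that repairs over-oxidized peroxiredoxins, was 68.0 in Luc and higher in the other libraries, at 85.7, 88.1 and 84.9, with log2 ratios from 0.32 to 0.37. Luc was therefore the lowest library for all 3 of these genes, below the threshold in each case. A further SRXN1 entry (ENSG00000234516), which overlaps the former, was listed at 9.10, 12.5, 18.2 and 8.62. Its lowest library was the ΔTM-labelled one and not Luc, and its highest was 3NQ. Summing both entries was checked on medians only, which a single gene can hardly move, so that this says nothing about SRXN1 itself. The 9 tested thioredoxin and peroxiredoxin genes had medians of −0.056, 0.034 and 0.079 in WT, 3NQ and the ΔTM-labelled library.

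PRDX3 (ENSG00000165672, chromosome 10 from 120927215 to 120938345), a mitochondrial peroxiredoxin, was lowest in WT. It measured 246 FPKM in Luc, against 170.0 for WT, 201 for 3NQ and 257 for the ΔTM-labelled library. The ΔTM-labelled library was the highest. The log2 ratio of WT to Luc was −0.53, just short of 1.5-fold. TXN2 and TXNRD2, which also act in mitochondria, lay within 0.15 of Luc on the log2 scale. TXN2, the mitochondrial thioredoxin, measured 41.2, 39.6, 41.5 and 44.6 FPKM, and TXNRD2, its reductase, measured 17.0, 17.6, 18.9 and 18.4. PRDX1, the most abundant peroxiredoxin, measured 904, 867, 926 and 796 FPKM, PRDX5 measured 171, 163, 149 and 159, and PRDX6 measured 318, 272, 308 and 304. PRDX2, a cytosolic peroxiredoxin, was listed at 0 in all 4 libraries, which can be a failed estimate. Its listed span overlaps HOOK2 on the same strand, with an FPKM from 20.4 to 26.0.

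None of the enzymes that supply NADPH was called. ME1, malic enzyme, measured 49.3 FPKM in Luc, against 43.8 for WT, 45.2 for 3NQ and 51.3 for the ΔTM-labelled library. PGD, of the oxidative pentose phosphate pathway, measured 128, 129, 137 and 129 FPKM. TALDO1 and TKT, transaldolase and transketolase of the non-oxidative branch, measured 151, 140.0, 139 and 151 FPKM and 330.4, 314, 309 and 255, respectively. The log2 ratios ranged from −0.17 to 0.016 in WT. The ratio furthest from 0 among these genes was that of TKT in the ΔTM-labelled library, at −0.37.

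Of the 9 genes for reduction of quinones, carbonyls and aldehydes and for export, 4 passed the filter. NQO1, the quinone reductase that commonly serves as a readout of NRF2, was high in every library, with an FPKM of 236 for Luc, 224 for WT, 208 for 3NQ and 232 for the ΔTM-labelled library. Its log2 ratio to Luc was −0.08 in WT. AKR1C3 (ENSG00000196139, chromosome 10 from 5077546 to 5149878), a ketosteroid and prostaglandin reductase, measured 6.09, 9.74, 5.39 and 8.31 FPKM. WT was highest, followed by the ΔTM-labelled library, and 3NQ was below Luc. Its log2 ratio of 0.60 in WT only just passed the threshold. It fell to 0.41 with a pseudocount of 5 and to 0.45 against the mean of 3NQ and the ΔTM-labelled library.

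AKR1C1 and AKR1C2, close relatives of AKR1C3, were near 0. AKR1C2 was listed at 0 in Luc and in the ΔTM-labelled library and measured 0.818 FPKM in WT and 0.0992 in 3NQ, and AKR1C1 measured 0.0222, 0.187, 0.207 and 0.060 FPKM. Over 969 coding bases, AKR1C1 and AKR1C2 were 98.0% identical, and AKR1C3 was 91.4% identical to AKR1C1 and 91.0% to AKR1C2. Reads shared between them were divided by the authors' correction for multi-mapped reads, so that these low values are uncertain. AKR1B1, aldose reductase, measured 0.172, 0.773, 0.346 and 0.362 FPKM, and AKR1B10, a relative with 75.8% coding identity, measured 0.0754, 0.132, 0.316 and 0.349. ALDH3A1, an aldehyde dehydrogenase, was listed at 0 except for 0.0548 in WT. The exporters of conjugates ABCC2 and ABCC3 measured 9.80, 8.06, 8.94 and 8.84 FPKM and 7.37, 8.48, 9.43 and 9.62, respectively, with no call. The 4 tested genes of this group had medians of 0.052, −0.13 and 0.16 in WT, 3NQ and the ΔTM-labelled library.

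The genes of haem breakdown and iron storage were above Luc in WT, without a call. HMOX1, haem oxygenase, measured 23.1 FPKM in Luc, against 29.2 for WT, 21.1 for 3NQ and 20.6 for the ΔTM-labelled library, and WT was the only library above Luc. FTL, the ferritin light chain, measured 884, 1270.5, 1097 and 1107 FPKM, and its log2 ratio of 0.52 in WT was just below the threshold. FTH1, the heavy chain, measured 999, 1228, 1187 and 868 FPKM, with log2 ratios of 0.30, 0.25 and −0.20. The summed FPKM of these 3 genes was 1905 for Luc, 2528 for WT, 2305 for 3NQ and 1996 for the ΔTM-labelled library. GENCODE lists 25 pseudogenes named after FTH1 and 16 after FTL, and reads of such copies can be exchanged with those of the genes.

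SOD1 (ENSG00000142168, chromosome 21 from 33031935 to 33041244), the cytosolic superoxide dismutase, measured 176 FPKM in Luc, against 149.8 for WT, 159.9 for 3NQ and 227 for the ΔTM-labelled library. The ΔTM-labelled library was highest and WT lowest, and neither was called against Luc, with log2 ratios of 0.36 and −0.23. CAT, catalase, measured 18.4, 18.6, 14.5 and 18.9 FPKM, with 3NQ the low library at −0.33.

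OSGIN1 (ENSG00000140961, chromosome 16 from 83981887 to 83999937), a growth inhibitor induced by oxidative stress, had the highest ratio of the list. It measured 3.20 FPKM in Luc, against 7.92 for WT, 4.76 for 3NQ and 3.62 for the ΔTM-labelled library. WT was highest and 3NQ next, as for GCLC, whereas the lowest library was Luc for OSGIN1 and the ΔTM-labelled one for GCLC. The log2 ratio came to 1.09 for WT, 0.46 for 3NQ and 0.14 for the ΔTM-labelled library. The WT value rests on low levels and fell to 0.66 with a pseudocount of 5, still a call but below 2-fold. Against the mean of 3NQ and the ΔTM-labelled library it was 0.78.

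**Figure D4:**
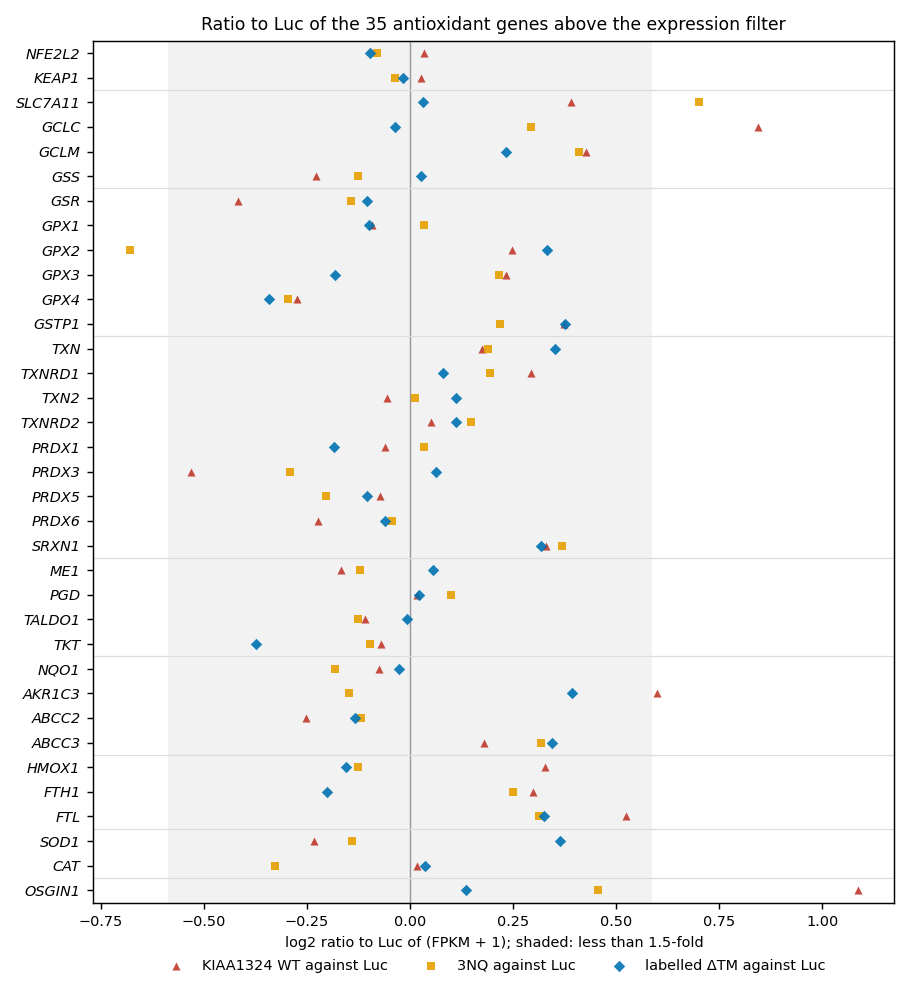
Log2 ratio to Luc of FPKM + 1 (x axis) for the 35 antioxidant genes that passed the filter, grouped by role, in WT, 3NQ and the ΔTM-labelled library. Points outside the shaded band are the calls, namely OSGIN1, GCLC and AKR1C3 in WT and SLC7A11 and GPX2 in 3NQ.

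Grouped by features other than role, the 6 selenoproteins (GPX1, GPX2, GPX3, GPX4, TXNRD1 and TXNRD2) had a median log2 ratio of 0.14 for WT, 0.091 for 3NQ and −0.011 for the ΔTM-labelled library. GPX2 in 3NQ was the single call among them against Luc.

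The comparisons that leave Luc out gave a partly different set. WT was called higher than 3NQ for GPX2, AKR1C3 and OSGIN1, 3 of 35 genes (8.57%) compared to 2.89% of all tested genes, and lower for 0, compared to 1.58%. The log2 ratio of WT to 3NQ was 0.93 for GPX2, 0.75 for AKR1C3 and 0.63 for OSGIN1, whereas for GCLC it was 0.55, short of the threshold. WT was called higher than the ΔTM-labelled library for GCLC (0.88) and OSGIN1 (0.95), 5.71% of the 35 genes compared to 4.25% of all tested genes. It was called lower for PRDX3 (−0.59) and SOD1 (−0.60), also 5.71%, compared to 2.91%. 3NQ was called higher than the ΔTM-labelled library for SLC7A11 (0.67) and lower for GPX2 (−1.01), 2.86% each compared to 1.46% and 1.88%. OSGIN1 was thus called in WT against each of the other libraries at the pseudocount of 1. With a pseudocount of 5, no antioxidant gene was called higher in WT than in 3NQ, so that its call there was lost. Of the 2 genes called higher in WT than in the ΔTM-labelled library, 1 then remained. These comparisons share libraries and are not independent of each other or of those with Luc.

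Another 50 genes of the same chemistry were followed as a wider list, of which 43 passed the filter. In WT, 6 of these 43 were called higher and 0 lower, compared to 3.36% and 3.34% of all tested genes. In 3NQ, 1 was higher and 0 lower, compared to 1.77% and 2.57%. In the ΔTM-labelled library, 1 was higher and 0 lower, compared to 1.54% and 1.57%. The wider list was chosen with earlier results of these data known. SQSTM1, which encodes the autophagy receptor p62 that binds KEAP1 and is itself an NRF2 target, measured 175 FPKM in Luc, against 495 for WT, 257 for 3NQ and 199.97 for the ΔTM-labelled library. It had the highest ratio among the antioxidant genes and the wider list, 1.49 in WT, compared to 0.55 in 3NQ and 0.19 in the ΔTM-labelled library. SOD2, the mitochondrial superoxide dismutase, measured 31.4, 59.7, 41.2 and 33.2 FPKM, with a log2 ratio of 0.91 in WT.

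CHAC1, which breaks glutathione down, measured 11.8 FPKM in Luc, against 23.1 for WT, 15.2 for 3NQ and 9.26 for the ΔTM-labelled library, a log2 ratio of 0.92 in WT. GGT1, which cleaves extracellular glutathione, measured 3.36, 6.84, 3.33 and 5.09 FPKM, and SESN2, a stress-induced sestrin, measured 8.57, 16.6, 12.7 and 8.86, with log2 ratios of 0.85 and 0.88 in WT. UGDH, which makes the glucuronate donor for conjugation, measured 29.3, 51.7, 45.5 and 44.3 FPKM. It was called higher in WT (0.80) and 3NQ (0.62), and its ratio of 0.58 in the ΔTM-labelled library lay at the threshold without reaching it. ABCG2, an exporter, was the single call in the ΔTM-labelled library, with 3.87, 3.60, 3.81 and 7.37 FPKM and a log2 ratio of 0.78. The small MAF partners of NRF2 were not called, with log2 ratios in WT of 0.43 for MAFF, 0.26 for MAFG and 0.43 for MAFK.

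**Figure D5:**
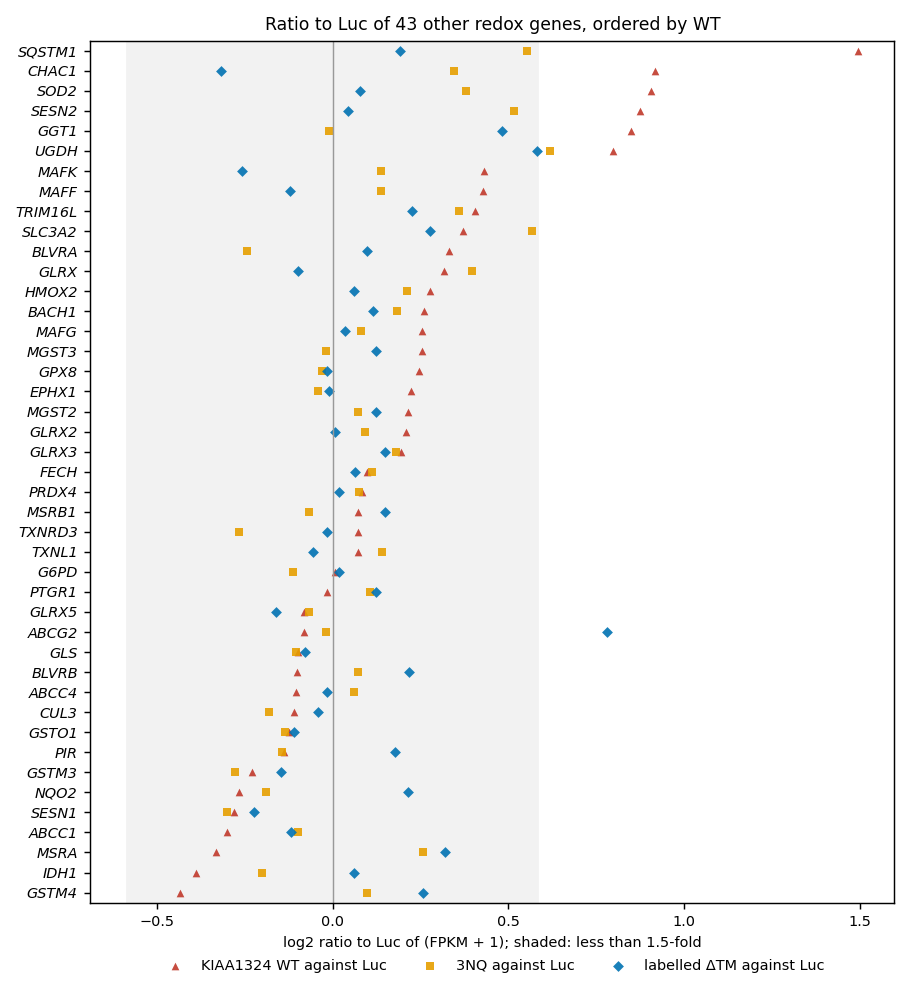
Log2 ratio to Luc of FPKM + 1 (x axis) for the 43 genes of the wider redox list that passed the filter, ordered by their ratio in WT, in WT, 3NQ and the ΔTM-labelled library. SQSTM1, CHAC1, SOD2, SESN2, GGT1 and UGDH lie to the right of the shaded band in WT, UGDH in 3NQ and ABCG2 in the ΔTM-labelled library.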

How the data were processed

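Poly(A) RNA of 4 MKN28 lines was sequenced, 1 library each. The authors removed low-quality reads, aligned the rest to GRCh37 using TopHat and obtained an FPKM for each gene from Cufflinks 2.1.1, which left out non-coding regions and adjusted for fragment bias and for reads that map to several places. These deposited FPKM were used as they stand, and no counts come with them. Column names matched sample titles.

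Ratios of log2(FPKM + 1) were computed in Python 3.11.15 with numpy 2.4.6 and pandas 2.3.3 for entries that reached 1 FPKM anywhere, with a call at 1.5-fold. The code that makes the calls was tested on simulated data with known folds, which says nothing about the spread between cultures. Each of the 42 genes is given in every library. Genes of the wider list are named where they reach 1.5-fold against Luc and 5 FPKM in some library, and the small MAF genes were added after their values were seen. The antioxidant genes and lists were chosen with earlier results of these data known. Start windows came from RefSeq (GRCh38.p14) and were placed on GRCh37 by exact match. Pseudogenes and coding sequences came from GENCODE on GRCh37, aligned with Biopython 1.88. Protein sequences were not used here, so coding identity replaced the planned protein identity. Figures were drawn with matplotlib 3.10.9. As alternatives, the threshold was set to 2-fold, the pseudocount to 0.1 or 5, and the filter to none or 5 FPKM. Libraries were also rescaled by their median of ratios or by upper quartiles. The mean of 3NQ and the ΔTM-labelled library served as the control, and entries of a symbol were summed.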

Additional observations from a re-analysis of the deposited data

How the results depend on the processing

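With a 2-fold threshold, the calls among the antioxidant genes against Luc fell to 1 (OSGIN1 in WT). Those between WT and 3NQ and between WT and the ΔTM-labelled library fell to 0, as did the call of 3NQ above the ΔTM-labelled library. The 1 call of 3NQ below the ΔTM-labelled library, GPX2 at −1.01, remained. At 2-fold, the wider list kept 1 call in WT (SQSTM1) and 0 in 3NQ and the ΔTM-labelled library. With a pseudocount of 5, the calls in 3NQ went to 0 in both directions, against Luc and against the ΔTM-labelled library, as did those of WT above 3NQ, while WT against the ΔTM-labelled library gave 1 higher and 1 lower. The wider list then had 0 calls in 3NQ and in the ΔTM-labelled library. With a pseudocount of 0.1, 2 antioxidant genes were higher and 2 lower in 3NQ than in the ΔTM-labelled library, and 2 genes of the wider list were higher in that library than in Luc. Without a filter, 5 antioxidant genes were higher in WT, AKR1B1 and AKR1C2 being added from FPKM below 1, and the median of the quinone, carbonyl, aldehyde and export genes came to 0.18 for WT, 0.14 for 3NQ and 0.052 for the ΔTM-labelled library. With an FPKM of at least 5 required, GPX2 dropped out, so that 0 genes were lower in 3NQ than in Luc or the ΔTM-labelled library, and the median of the genes that reduce or use glutathione was −0.18 in WT. Rescaling by the median of ratios gave 3 genes of the wider list higher in 3NQ and 2 in the ΔTM-labelled library, and the upper quartile gave 2 in the latter. The median-of-ratios rescaling also moved the calls over all genes in the ΔTM-labelled library from 181 higher and 185 lower to 222 and 145. A change of threshold, pseudocount or filter cannot turn the sign of a ratio. Under rescaling, none of the 5 calls of antioxidant genes against Luc changed sign. Nor did the 3 calls in WT against the mean of 3NQ and the ΔTM-labelled library. Uncalled ratios did change sign, 6 of them after median-of-ratios rescaling and 3 with the upper quartile. In WT against the mean of 3NQ and the ΔTM-labelled library, 11 did. Among these were SLC7A11 (0.39 to −0.014), SRXN1 (0.33 to −0.014) and GPX4 (−0.27 to 0.045). Depth is unknown, and with 1 library per group the spread between cultures was not measured, so that ratios just past 1.5-fold, such as that of AKR1C3, cannot be told from those just short of it, such as PRDX3 and FTL in WT.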
